A study of Mus musculus with 4 samples.

Results

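The 10 immediate-early genes Fos, Fosb, Jun, Junb, Egr1, Egr2, Egr3, Atf3, Ier2 and Hspa1a were described across the cell lineages of mouse lung and synovium, out of 32285 genes counted. The members were selected on their UMI counts by lineage in these same libraries, so their levels are given here as a description, with no test. Single-cell RNA sequencing had been run on 4 libraries, 1 from the lung and 1 from the synovium of each genotype, TNF- and TNF+. TNF+ mice carried a human TNF transgene and TNF- mice were littermates without it, and all were females of 4 months on a C57BL/6 background. Tissue was pooled within a group, from 3 to 5 mice for lung and 5 to 10 for synovium, which makes each library a single pool without replicates. Both tissues were broken up mechanically and with enzymes, using collagenase A, elastase and dispase II for lung and a type II collagenase for synovium, and live cells were sorted after lysis of red cells.

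Immediate-early genes are transcribed within minutes of a stimulus, because the factors that switch them on are already present in the resting cell. Growth factors, cytokines, mechanical force and damage reach them through MAP kinases, serum response factor and CREB, and most of their products are transcription factors that turn on later genes and are themselves short-lived. FOS and JUN family proteins pair to form AP-1, which drives matrix-degrading enzymes in the arthritic joint. The EGR proteins are zinc finger factors, ATF3 is a stress-induced factor of the CREB family, IER2 is a nuclear protein of the early response, and HSPA1A is the inducible HSP70 chaperone that heat shock factor turns on. Taking tissue apart with warm enzymes is a well-known stimulus of the same genes.

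Of the barcodes in the deposited matrices, 6998 cells of TNF- lung and 9174 of TNF+ lung were kept, as were 6200 of TNF- synovium and 3152 of the TNF+ synovium, with median depths between 7137 and 12492 UMIs. The TNF+ synovium stood apart in RNA quality, with mitochondrial genes giving over 20% of the UMIs in 17.6% of its barcodes, against 1.41% to 3.78% in the other libraries. Pairs of libraries shared between 5 and 21 cell barcodes. Cells were clustered within each tissue and each cluster was named from marker genes as like a cell type, which left 2 of 36 lung clusters and 4 of 28 synovial clusters unnamed. Lineage names below stand for such marker-based groups, and many clusters came mostly from a single library. In the TNF+ lung the structural cells were shallow, as shown by the endothelium, whose median was 765.5 UMIs per cell against 6496 in TNF- lung.

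Promoter sequence was available from RefSeq (GRCm38.p6) for 7 of the 10 members, as windows of 300 bases from 250 before to 50 after a transcription start. Letters searched on both strands were TGACGTCA (the cyclic AMP response element), TGANTCA (the AP-1 site), the CArG box bound by serum response factor, GAANNTTC (a heat shock element core), TATAAA and the EGR sites GCGGGGGCG and GCGTGGGCG. The CArG box was in 4 of 5 windows of Egr2 and in no other member's window, against 1.63% of all 32851 promoter windows. GAANNTTC was in the windows of Jun and Hspa1a and in 7.86% of all, TATAAA was in those of Fos and Junb and in 13.6% of all, and an EGR site was in that of Fosb and in 3.47% of all. No member's window held TGACGTCA or TGANTCA in full, which 1.79% and 7.81% of all windows did. The 4 windows below are shown because they hold the TATAAA of Fos, the heat shock core letters of Jun and Hspa1a and the CArG box of Egr2, each in capitals, read 5′ to 3′ on the gene's own strand. They lie at chr12:85473640-85473939 (plus strand), chr4:95052173-95052472 (minus strand), chr10:67537619-67537918 (plus strand) and chr17:34972107-34972406 (minus strand).
Fos: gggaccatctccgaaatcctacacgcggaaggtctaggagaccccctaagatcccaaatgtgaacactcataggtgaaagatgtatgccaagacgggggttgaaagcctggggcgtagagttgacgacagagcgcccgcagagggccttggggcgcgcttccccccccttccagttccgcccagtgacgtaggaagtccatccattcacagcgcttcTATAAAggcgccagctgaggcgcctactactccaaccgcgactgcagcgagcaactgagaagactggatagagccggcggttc
Jun: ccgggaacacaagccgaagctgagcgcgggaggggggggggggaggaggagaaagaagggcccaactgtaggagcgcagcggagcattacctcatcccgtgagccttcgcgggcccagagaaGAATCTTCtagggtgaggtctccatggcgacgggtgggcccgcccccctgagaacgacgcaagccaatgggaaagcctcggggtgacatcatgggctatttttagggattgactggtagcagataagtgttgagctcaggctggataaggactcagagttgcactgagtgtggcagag
Egr2: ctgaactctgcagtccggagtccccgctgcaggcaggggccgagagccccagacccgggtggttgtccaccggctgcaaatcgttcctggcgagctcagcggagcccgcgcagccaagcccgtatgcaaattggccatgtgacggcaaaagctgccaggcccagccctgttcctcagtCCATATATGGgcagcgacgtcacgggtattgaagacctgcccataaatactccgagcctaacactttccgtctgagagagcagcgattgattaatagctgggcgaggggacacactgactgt
Hspa1a: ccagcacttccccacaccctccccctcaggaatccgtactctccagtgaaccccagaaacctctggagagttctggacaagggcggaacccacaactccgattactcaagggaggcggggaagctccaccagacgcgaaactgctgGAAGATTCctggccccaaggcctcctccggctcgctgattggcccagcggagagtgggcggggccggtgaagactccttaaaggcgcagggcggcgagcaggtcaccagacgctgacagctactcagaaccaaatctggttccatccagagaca

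The member genes lie on 9 chromosomes of GRCm38 (GENCODE vM21), with Junb and Ier2 both on chromosome 8. Hspa1a at chr17:34969190-34972156 has a near-identical copy, Hspa1b, 9951 bases away, so reads can be shared or lost between them and the Hspa1a count is uncertain. No other annotated gene overlapped a member on its own strand. Levels below are UMIs of a gene per 1000000 UMIs of all genes in a lineage (CPM), and since each molecule is counted at its 3′ end they are compared between lineages and libraries but not between genes. Intervals are exact 95% Poisson intervals for levels and conditional binomial intervals for log2 ratios, and cover counting error only, not the differences between mice or preparations.

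Fos, the AP-1 subunit that depends on a partner of the JUN family, had its highest level of any lineage in the mesenchyme of TNF- synovium, at 3079 CPM (3064 to 3094). The other structural lineages of that library followed, with 2098 CPM in Schwann cells, 1967 in endothelium and 1850 in muscle, of which Schwann cells and endothelium overlapped in their intervals. Its lymphocytes and myeloid cells were lower, at 741 and 732 CPM, and did not differ beyond counting error. In TNF+ synovium the order was different, with Schwann cells at 1865 CPM, endothelium at 1542, epithelium at 794, mesenchyme at 706, myeloid cells at 322 and lymphocytes at 153. In TNF- lung Fos led in myeloid cells, at 980 CPM, over 263 in platelets, 211 in mesenchyme, 156 in lymphocytes, 68.7 in epithelium and 37.8 in endothelium. The TNF+ lung values were 342 CPM in myeloid cells, 223 in mesenchyme, 108 in epithelium, 105 in lymphocytes, 78.9 in platelets and 54.2 in endothelium. All structural lineages of TNF- synovium were above every lung lineage, while TNF+ synovial epithelium and mesenchyme lay below TNF- lung myeloid cells.

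Fosb, the FOS relative with the same pairing partners, was at 2087 CPM in muscle, 2012 in mesenchyme, 1426 in Schwann cells, 1311 in lymphocytes, 1148 in endothelium and 505 in myeloid cells of TNF- synovium. Mesenchyme kept 1220 CPM in TNF+ synovium, over 803 in Schwann cells, 787 in endothelium, 481 in epithelium, 192 in lymphocytes and 114 in myeloid cells. No lung lineage passed 153 CPM, the value in TNF- myeloid cells, and the lowest with any UMI was TNF- endothelium at 10.1. The lymphocytes of TNF- synovium thus carried Fosb among the levels of structural cells, which was not so for Fos.

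Jun, the usual partner of FOS, had its highest lung level in endothelium, where TNF- cells had 996 CPM (979 to 1013), above 375 in myeloid cells, 350 in mesenchyme, 254 in lymphocytes, 187 in epithelium and 122 in platelets. The same endothelium had the lowest TNF- lung levels of Fos, Fosb and Junb, the last overlapping with epithelium. In TNF- synovium Jun was at 2525 CPM in mesenchyme and 2491 in endothelium, which overlapped, then 1663 in Schwann cells, 1274 in muscle, 513 in lymphocytes and 387 in myeloid cells. The TNF+ synovium gave 1561 in endothelium, 1363 in Schwann cells, 924 in mesenchyme, 903 in epithelium, 207 in myeloid cells and 113 in lymphocytes. TNF+ lung ran from 188 CPM in lymphocytes to 520 in endothelium.

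Junb, a JUN family protein that can oppose JUN, ranged 16.3-fold over the 24 library-by-lineage profiles, where Fos ranged 81.4-fold, Jun 22.4-fold and Ier2 18.2-fold. Lymphocytes of TNF- synovium held its highest level, 2701 CPM (2651 to 2752), above 2389 in mesenchyme and 2332 in endothelium. In TNF+ synovium mesenchyme at 1557 CPM, lymphocytes at 1505 and endothelium at 1505 overlapped in their intervals, while myeloid cells had 744. Among lung lineages it was highest in TNF- myeloid cells at 1224 CPM and TNF- lymphocytes at 1022, and lowest in TNF- endothelium at 166.

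Egr1, the EGR factor induced by serum, stretch and hypoxia, was concentrated in synovial structural cells. Its level in TNF- synovium was 2860 CPM in mesenchyme, 2548 in endothelium, 1876 in muscle, 1626 in Schwann cells, 322 in lymphocytes and 185 in myeloid cells. TNF+ synovium had 1135 in endothelium, 754 in mesenchyme, 667 in Schwann cells, 599 in epithelium, 22.1 in myeloid cells and 20.4 in lymphocytes, the last a pair of lineages that did not differ beyond counting error. In lung it was highest in mesenchyme, at 224 CPM in TNF- and 147 in TNF+, and in TNF+ lung platelets no UMI was found among the 133 cells.

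Egr2, which Schwann cells need to make myelin, was highest in that lineage in both synovial libraries, at 99.9 CPM (72.3 to 135) in TNF- and 160 CPM (136 to 187) in TNF+, intervals that did not overlap. The other synovial levels lay between 1.70 CPM in TNF+ lymphocytes, which is 2 UMIs, and 51.8 in TNF- muscle. In TNF- lung it was at 32.4 CPM in myeloid cells and at 5.42 or less in the other lineages. Egr3, an EGR factor of lymphocytes and muscle spindles, was also led by Schwann cells at 119 CPM and endothelium at 103 in TNF- synovium, overlapping, with 82.9 and 66.9 in TNF+ synovium. Lymphocytes held 70.6 CPM of Egr3 in TNF- synovium and 3.39 in TNF+ synovium, the latter from 4 UMIs, against 29.1 and 25.2 in TNF- and TNF+ lung.

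Atf3 ranged 280-fold, from 4.53 CPM in TNF+ lung lymphocytes to 1267 in TNF- synovial endothelium. Schwann cells were close to that top at 1176 CPM in TNF- and 1075 in TNF+ synovium, and synovial mesenchyme had 797 and 745. Synovial myeloid cells had 515 and 364 CPM and lung myeloid cells 161 and 72.1, in TNF- and TNF+ in turn. Ier2 was highest in synovial endothelium, at 878 CPM in TNF- and 528 in TNF+, and its lung levels, from 70.1 in TNF- epithelium to 350 in TNF- myeloid cells, overlapped the synovial range, which reached down to 48.1 in TNF+ myeloid cells. Hspa1a, like Ier2, was highest in synovial endothelium in both libraries, with 728 CPM (700.3 to 757) in TNF- and 816 CPM (789 to 844) in TNF+, where the next highest lineages had 318 in TNF- muscle and 207 in TNF+ mesenchyme. Lung endothelium was at the other end, with 6.75 CPM in TNF-.

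**Figure D1:**
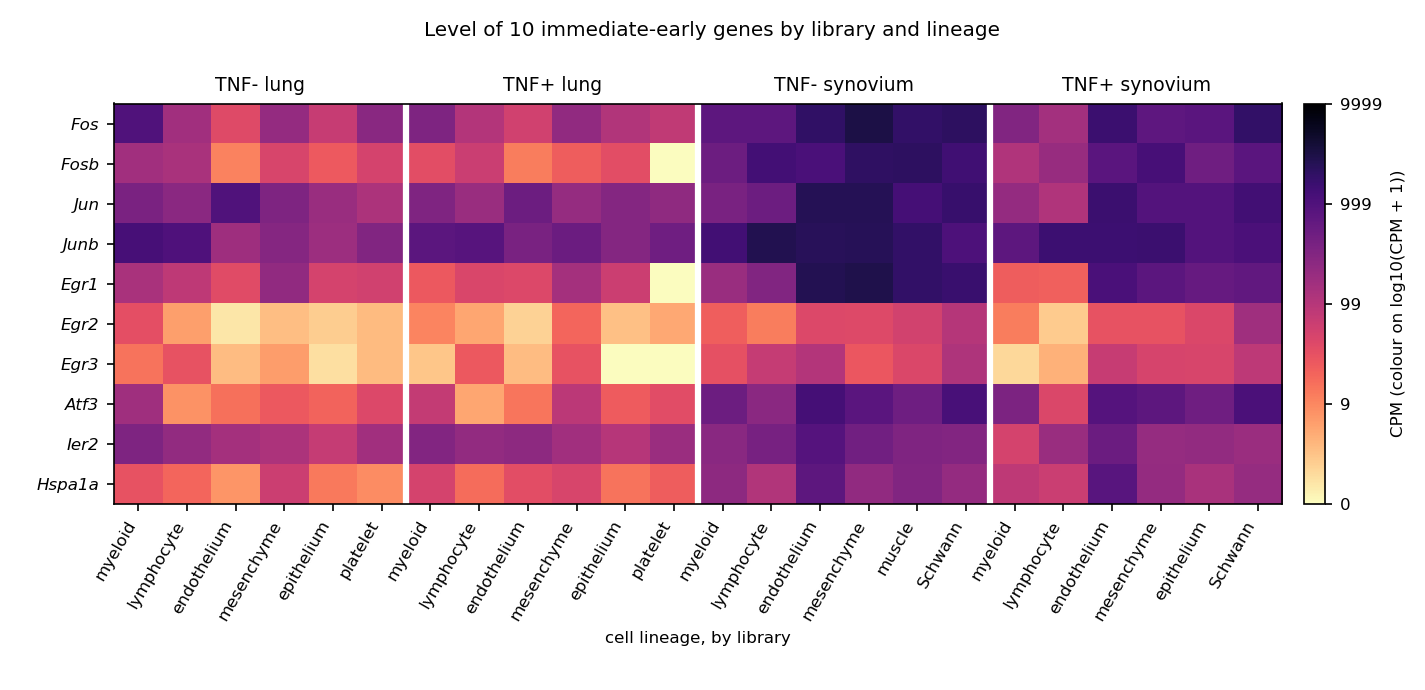
Level of each member (CPM, colour on a log scale) in each library and lineage with at least 50 cells. Darker colour is a higher level. The structural lineages of TNF- synovium are dark, as in Fos at 3079 CPM in mesenchyme, and Jun stands at 996 CPM in TNF- lung endothelium.

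In the synovium the members were lower in TNF+ than in TNF- in most lineages, with the most members at least 2-fold lower in lymphocytes, myeloid cells and mesenchyme. A member was compared in a lineage with at least 50 cells in both libraries where it had at least 20 UMIs over both. Of 50 such member-by-lineage pairs in synovium, 20 (40%) were at least 2-fold lower in TNF+ and 0 were at least 2-fold higher, where between 10.4% and 21.4% of all genes tested in a lineage were lower and 6.73% to 11.9% higher. In lung 10 of 53 (18.9%) were at least 2-fold lower and 5 (9.43%) at least 2-fold higher, where 7.34% to 16.7% and 4.43% to 14.6% of all genes were. The lung count of higher pairs was thus within the background range. That of lower pairs was above it, with 6 of the 10 in myeloid cells and 2 in platelets, from which no difference is read below. It was 8 of 56 with no filter on cells, 7 of 47 with a stricter filter and 6 of 43 with single-library clusters left out. No excess over the background is therefore read for lung. These are differences between single libraries, and what part the transgene, the pools or the preparation had in them cannot be told apart. Scaling by the median gene in place of the total would shift all log2 ratios of a lineage by between -0.20 and 0.28.

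In synovial mesenchyme Fos was at 3079 CPM in TNF- and 706 in TNF+, which is a log2 ratio of -2.12 (-2.17 to -2.08), and Egr1 at 2860 and 754, with a ratio of -1.92 (-1.96 to -1.88). Jun, with a log2 ratio of -1.45, and Ier2, with -1.2, completed the 4 of 10 members at least 2-fold lower, where 21.4% of the 16749 genes tested there were at least 2-fold lower. Fosb (-0.72), Junb (-0.62) and Egr2 (-0.44) were lower by less than 2-fold, Atf3 and Hspa1a had log2 ratios of -0.10 and -0.13, and Egr3 alone was higher, at 0.89 (0.71 to 1.07). The members' median log2 ratio was -0.67 and that of all genes -0.27. The members therefore did not move as a block in these cells, since Fos, Egr1 and Jun were well below while Atf3 and Hspa1a were nearly level.

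The composition of the mesenchyme differed between the libraries, since 83.8% of its TNF- cells and 66.7% of its TNF+ cells lay in clusters with over 90% of their cells from a single library. A cluster led by Ibsp, Mmp13 and Saa3 held 227 TNF+ and 2 TNF- cells, and its TNF+ cells had Fos at 316 CPM and Egr1 at 431. All fibroblast-like cells, 3043 in TNF- and 402 in TNF+, lay in such clusters, so no fibroblast-like cluster was mixed by that measure. In the clusters led by Gdf10 and Grm8, mostly of TNF- cells, the few TNF+ cells were shallower and the difference had the same sign. In the fibroblast-like cluster led by Gdf10, Fos was 3159 CPM in 1055 TNF- cells and 1226 in 104 TNF+ cells, and Egr1 2470 and 1161. In the fibroblast-like cluster led by Grm8, Fos was 3306 and 553 CPM and Egr1 3671 and 1408, with 52 TNF+ cells. The skeletal-like cluster led by Chad was mixed, with 296 TNF- and 74 TNF+ cells. There Fos was 3828 CPM in TNF- and 1437 in TNF+, and Egr1 3186 and 840. The mural-like cluster led by Myh11, also mixed, was the exception for Egr1. It had Egr1 at 794 CPM in TNF- and 1376 in TNF+, a log2 ratio of 0.79 (0.64 to 0.95), while Fos was at 1079 and 852. Over all fibroblast-like cells Fos was at 3042 CPM in TNF- and 496 in TNF+, and Atf3 at 812 and 746.

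Synovial lymphocytes had the lowest median of the members. Of 10 members, 8 were at least 2-fold lower in TNF+, where 13.1% of the 10335 genes tested were, and the members' median log2 ratio was -2.44 against 0.15 for all genes. Egr1 was at 322 CPM in TNF- and 20.4 in TNF+, giving a log2 ratio of -3.98 (-4.63 to -3.40), Fosb from 1311 to 192 (-2.77), Atf3 from 257 to 42.4 (-2.60), Fos from 741 to 153 (-2.28) and Jun from 513 to 113 (-2.18). Egr3 had a log2 ratio of -4.38 and Egr2 of -2.74 on 4 and 2 UMIs in TNF+, and Ier2 had -1.10. Junb, at -0.84, and Hspa1a, at -0.76, were the 2 that differed by less than 2-fold. TNF- lymphocytes included more cells of a cluster led by Il5 and Gata3, with 144 cells against 18 in TNF+, so the T-like cluster led by Gzma and Cd3d, with 131 TNF- and 129 TNF+ cells, was compared alone. There Fos was 429 and 146 CPM, Egr1 144 and 19.9, Jun 232 and 101, Atf3 185 and 48.0 and Junb 2215 and 1468, all lower in TNF+.

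Synovial myeloid cells had 6 of 10 members at least 2-fold lower in TNF+, where 19.1% of the 12849 genes tested were. Egr3 had the lowest log2 ratio, -4.79 (-5.57 to -4.11), followed by Egr1 at -3.06 (185 to 22.1 CPM), Ier2 at -2.46 (265 to 48.1), Fosb at -2.15 (505 to 114), Hspa1a at -1.59 (240 to 79.9) and Fos at -1.18 (732 to 322). The cell types behind this lineage were not the same, since 372 of 546 TNF- cells were dendritic-like and 1079 of 1183 TNF+ cells were macrophage- or monocyte-like. Within dendritic-like cells Egr1, Egr3, Fosb, Jun and Fos had log2 ratios of -3.45, -3.93, -2.49, -2.39 and -2.24. Within the cells named macrophage- or monocyte-like the differences were smaller for Fos (-0.47), Egr1 (-0.95) and Fosb (-0.80), and Ier2 stayed at -2.64. Atf3 and Egr2 had the other sign there, since Atf3 was 150 CPM in TNF- and 369 in TNF+, a log2 ratio of 1.30, and Egr2 had 1.06, where the whole lineage had -0.50 and -0.95. These cells lay in different clusters, with 866 TNF+ and 11 TNF- cells in a cluster led by Trem2, and 136 of the 147 TNF- cells in a cluster led by Cd300e and Treml4. In the latter, which held 213 TNF+ cells, Atf3 was 147 CPM in TNF- and 511 in TNF+, a log2 ratio of 1.80 (1.59 to 2.0). A further cluster, led by Ccl12, Ccl24 and Cd209f, had 15 macrophage or monocyte markers but was left unnamed and is outside this lineage. In its 75 TNF- and 31 TNF+ cells all 10 members were lower in TNF+, with a median log2 ratio of -2.56. The smaller differences above thus do not cover all macrophage-like cells.

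Endothelium differed less. Of 10 members 1, Egr1, was at least 2-fold lower in TNF+ synovial endothelium, from 2548 to 1135 CPM (log2 ratio -1.17, -1.22 to -1.12), where 10.4% of the 11897 genes tested were. Fos, Fosb, Jun, Junb, Egr2, Egr3, Atf3 and Ier2 had log2 ratios between -0.73 and -0.35, and Hspa1a was slightly higher at 0.16 (0.09 to 0.24). No synovial endothelial cell lay in a cluster of a single library. In Schwann cells Egr1 was again the 1 member of 10 past 2-fold, at -1.29 (-1.44 to -1.13), where 13.1% of the 7846 genes tested were, and Egr2 was higher at 0.68 (0.18 to 1.2). The TNF- side of the Schwann comparison held 70 cells, and 91.5% of the 235 TNF+ cells were in clusters of 1 library.

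Counted over synovial clusters with at least 20 cells in both libraries, the interval of the ratio lay below 0 for Fos in 16 of 17 clusters and above 0 in none. Egr1 was below in 15 and above in 1, Jun and Junb were below in 15 and above in none, and Ier2 was below in 14 and above in 1. Hspa1a was below in 3 and above in 4 of 16 clusters, and Atf3 below in 10 and above in 4, so the stress-related members had no common sign where the AP-1 members and Egr1 did. The clusters share their 2 libraries and are not replicates.

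The lung gave a different picture in its structural cells. Lung myeloid cells had 6 of 10 members at least 2-fold lower in TNF+, where 16.7% of the 15514 genes tested were: Egr3 (-2.78), Egr1 (-2.37, from 131 to 25.4 CPM), Fosb (-2.20, from 153 to 33.3), Egr2 (-1.75), Fos (-1.52, from 980 to 342) and Atf3 (-1.16). Jun (-0.15) and Ier2 (-0.18) were nearly level and Hspa1a was higher, at 0.71 (0.54 to 0.89). Neutrophil-like cells, in which Fos was 3080 CPM in TNF- and 1767 in TNF+, were 302 of 1047 TNF- and 179 of 4887 TNF+ myeloid cells, and within them Fos had a log2 ratio of -0.80, Fosb of -1.30 and Egr1 of -1.85. Within macrophage- or monocyte-like lung cells Fos had -1.06, Fosb -2.0, Egr1 -1.82, Egr2 -2.11 and Atf3 -1.25, and Hspa1a 0.81. These cells too lay in different clusters, with 2786 TNF+ and 28 TNF- cells in one, 870 and 24 in another and 11 and 284 in a further one. In the cluster led by F13a1, with 427 TNF+ and 132 TNF- cells, Fos was 605 CPM in TNF+ and 1130 in TNF-, Atf3 129 and 271, and Egr2 12.1 and 10.8, so Fos and Atf3 but not Egr2 kept the sign of the whole. Of the TNF+ myeloid cells, 75.0% in lung and 73.2% in synovium were in clusters of a single library.

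Lung lymphocytes had 1 member of 10 at least 2-fold lower in TNF+, Fosb at -1.08 (-1.16 to -1.0), where 10.2% of the 16096 genes tested were. Egr1 had -0.88 there and Ier2 0.00. In lung endothelium 2 of 9 members were at least 2-fold higher in TNF+, Hspa1a at 2.32 (1.80 to 2.83) and Junb at 1.23 (1.10 to 1.37), where 10.2% of the 13422 genes tested were, and Jun was lower, from 996 to 520 CPM (-0.94). After every cell was thinned to 1000 UMIs, Hspa1a was found in 0.272% of TNF- lung endothelial cells (0.0885 to 0.634) and in 0 of 157 TNF+ ones, which allows up to 2.32%, so no order is read for it. Of the lung endothelial cells, 97.9% in TNF- and 97.7% in TNF+ lay in clusters of a single library.

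In lung mesenchyme Egr2 at 2.91 (1.54 to 4.31), Egr3 at 2.34 (1.34 to 3.31) and Atf3 at 1.78 (1.26 to 2.28) were at least 2-fold higher in TNF+, 3 of 10 members where 9.57% of the 11959 genes tested were, and Fosb at -1.03 was the 1 member at least 2-fold lower, where 9.11% were. The TNF+ levels of Egr2 and Egr3 were 18.6 CPM (9.27 to 33.2) and 28.7 CPM (16.7 to 45.9). Without thinning, Egr3 was found in 1.84% of TNF+ and 1.95% of TNF- cells, Atf3 in 5.53% and 8.85%, and Egr2 in 2.3% and 1.06%. After thinning to 1000 UMIs, Egr3 was found in 0 of 79 TNF+ cells, and Atf3 in 2.53% of TNF+ and 2.18% of TNF- cells. These 3 ratios thus rest on few TNF+ cells, and no rise across the lineage is read from them. In lung epithelium all 8 members compared had log2 ratios above 0, between 0.19 and 0.78, and 0 were at least 2-fold higher, where 14.4% of the 11973 genes tested were. The intervals of Fosb, Egr1, Atf3 and Hspa1a included 0. Composition differed too, since a cluster led by Birc5 held 132 TNF+ and 28 TNF- cells. The members' median was 0.03 in that cluster, 0.37 in the cluster led by Ank3 and -0.20 in the cluster led by Rtkn2. In platelets Fos, at -1.74, and Egr1, which had no UMI in TNF+ and was at least 2.05 lower on the log2 scale when 3 counts were put in its place, were 2 of 6 members at least 2-fold lower, where 7.93% of the 3934 genes tested were. Platelets held 24 myeloid markers at 7.86% (TNF-) and 9.79% (TNF+) of their level per myeloid cell, and Fos at 4.64% and 4.11%. Platelet Fos was thus below the marker level and could not be told apart from free RNA. No difference is read from it or from Egr1, at 7.15% in TNF-.

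**Figure D2:**
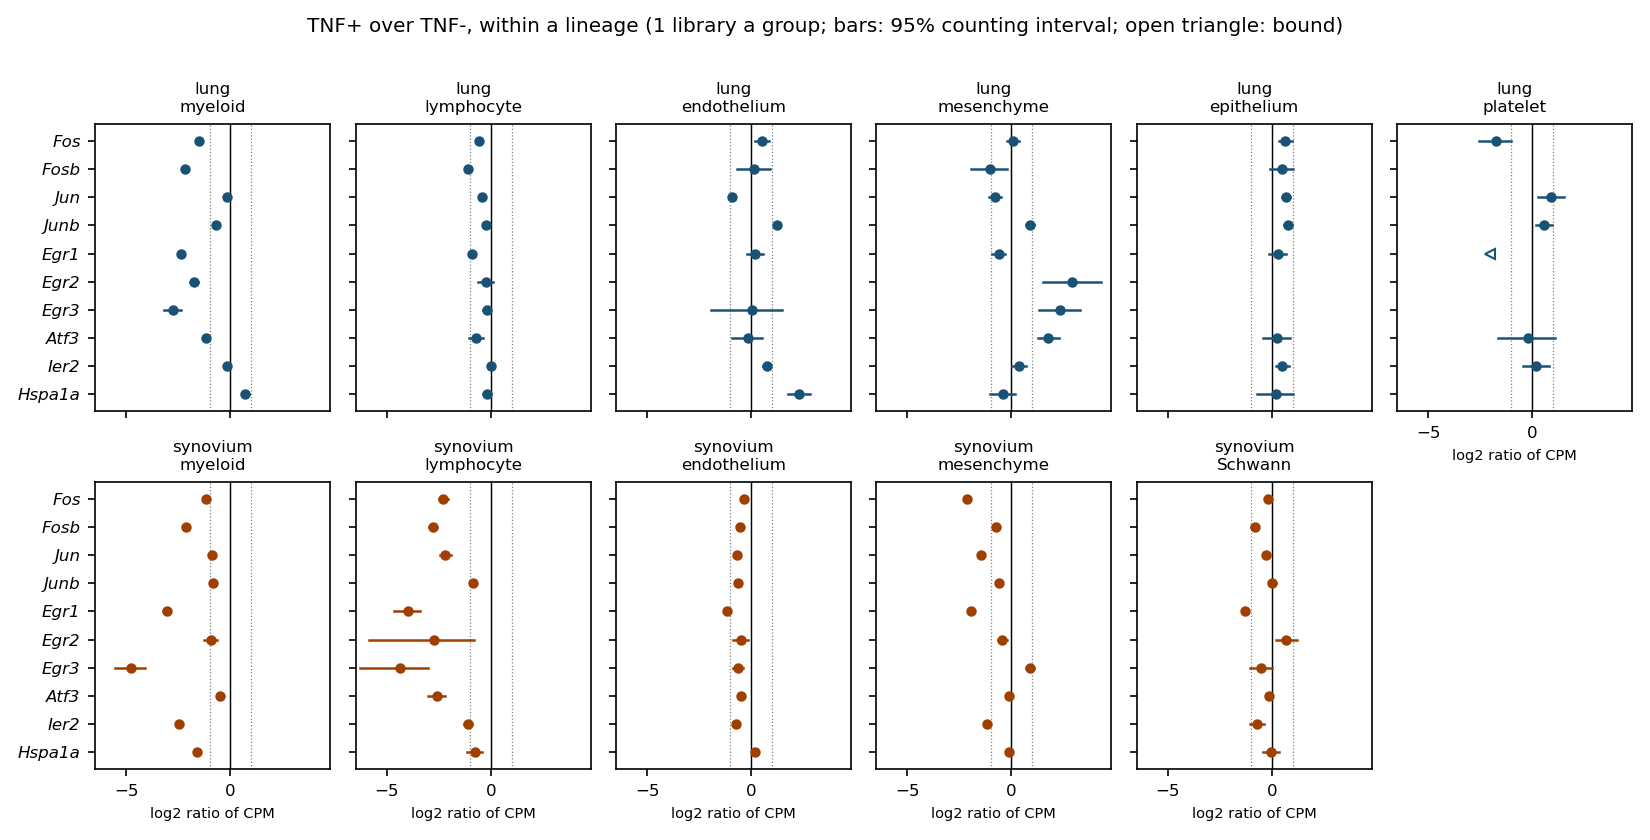
Log2 ratio of CPM, TNF+ over TNF-, for each member in each lineage of lung (top row) and synovium (bottom row). Points are ratios between single libraries, bars are 95% counting intervals, dotted lines mark 2-fold, and the open triangle is a bound. Synovial lymphocyte points are all left of 0, from -4.38 to -0.76, and lung epithelium points all right of it, from 0.19 to 0.78.

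Set side by side across tissues, the members were higher in synovium than in lung above all in structural cells. The comparisons reuse the libraries above, and tissue, enzyme mix and library cannot be told apart in them. In TNF- endothelium 10 of 10 members were at least 2-fold higher in synovium, where 13.1% of the 13917 genes tested were, with a members' median log2 ratio of 5.90 against -0.49 for all genes. Fosb had 6.83, Hspa1a 6.75, Atf3 6.43, Egr1 6.14 and Fos 5.70, and Jun, already high in lung endothelium, had 1.32. The Fos, Fosb and Egr2 levels of TNF- lung endothelium, as a percent of the myeloid level, were below that of the myeloid markers described below. They could thus not be told apart from free RNA. In TNF- mesenchyme 10 of 10 were at least 2-fold higher, where 13% of the 16856 genes tested were, with a median of 3.35, and Fosb at 5.49, Atf3 at 4.99, Fos at 3.87 and Egr1 at 3.67 were ahead of Hspa1a at 1.90.

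TNF- lymphocytes had 9 of 10 members at least 2-fold higher in synovium, where 10.9% of the 14644 genes tested were, with a median of 1.69. TNF- myeloid cells had 4 of 10, where 6.46% of the 13607 genes tested were, with a median of 0.32. The cell types within these lineages differed between the tissues. B- or plasma-like cells were 1288 of 2456 lung and 62 of 337 synovial lymphocytes in TNF-, and 1595 of 3215 and 36 of 183 in TNF+. Of TNF- myeloid cells, 302 of 1047 in lung and 27 of 546 in synovium were neutrophil-like, and 91 and 372 dendritic-like. Among TNF+ libraries, endothelium again had 10 of 10, where 13.2% of the 11592 genes tested were, with a median of 4.63, and mesenchyme 7 of 10, where 9.97% of the 11772 genes tested were, the exceptions being Egr2 (0.62), Egr3 (0.71) and Ier2 (0.38). TNF+ leukocytes were mixed. In TNF+ lymphocytes Atf3 (3.23), Hspa1a (1.98) and Fosb (1.62) were at least 2-fold higher in synovium, where 15.5% of the 14753 genes tested were, and Egr3 (-2.89), Egr2 (-1.44) and Egr1 (-1.11) at least 2-fold lower, where 20.5% were. In TNF+ myeloid cells Atf3 (2.33) and Fosb (1.78) were at least 2-fold higher, where 9.6% of the 15427 genes tested were, and Ier2 (-2.68) at least 2-fold lower, where 39.6% were.

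The other genes of the response were read from lists of further AP-1 and CREB family genes, further immediate-early genes, feedback genes that end the response, upstream kinases and factors, heat shock genes and nuclear RNAs. In synovial lymphocytes 14 of 24 further immediate-early genes tested and 9 of 19 feedback genes were at least 2-fold lower in TNF+, with medians of -1.11 and -0.94. Of all genes tested there, 13.1% were at least 2-fold lower and 7.77% at least 2-fold higher. Nr4a1, an orphan nuclear receptor induced by antigen receptor signals, was 682 CPM in TNF- and 126 in TNF+ (-2.43), Klf4 was 524 and 97.6 (-2.43), and the phosphatase gene Dusp1, which switches MAP kinases off, was 398 and 114 (-1.81). Dusp2 and Dusp4 were the feedback genes at least 2-fold higher there, Dusp2 with 77.7 and 182 CPM (1.22). Upstream genes were 1 of 21 at least 2-fold lower with a median of 0.29, and heat shock genes 3 of 19 with a median of 0.00, beside Hspa1b at 154 and 62.8 CPM (-1.29).

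In synovial myeloid cells 13 of 25 further immediate-early genes were at least 2-fold lower and 4 at least 2-fold higher in TNF+, where 19.1% and 11% of all genes were. Btg2, a growth-restraining gene, was 492 CPM in TNF- and 69.6 in TNF+ (-2.82), while Ier3 was 244 and 973 (2.0) and Sgk1, a serum- and steroid-induced kinase, 81.9 and 365 (2.16). In lung myeloid cells 9 of 25 were at least 2-fold lower, where 16.7% of all genes were. Nr4a1 was however 381 and 674 CPM (0.82). Of 20 feedback genes in lung myeloid cells, 3 were at least 2-fold higher and 4 at least 2-fold lower, with a median of -0.48. Of all genes tested there, 4.43% were higher and 16.7% lower. The NF-kappaB inhibitors Nfkbia, at 460 and 1099 (1.25), and Tnfaip3, at 85.0 and 233 (1.45), were among those higher. As whole lineages, the myeloid cells of both tissues therefore had lower Fos and Egr1 in TNF+ beside some other induced genes that were higher. Their cell types differed between the libraries, as given above, and these other genes were not compared within a cell type.

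Synovial mesenchyme did not follow its lymphocytes. There 3 of 25 further immediate-early genes were at least 2-fold higher and 3 at least 2-fold lower in TNF+, with a median of 0.35, and 6 of 20 feedback genes were higher and 3 lower. Of all genes tested there, 9.3% were at least 2-fold higher and 21.4% at least 2-fold lower, so the immediate-early counts were near or below that background. Fosl1, the gene of the AP-1 subunit FRA1, was 15.2 CPM in TNF- and 114 in TNF+ (2.90), and Sgk1 was 154 and 649 (2.08). Zfp36, which destabilises inflammatory mRNAs, was 1134 and 359 (-1.66), and Klf2 was 837 and 258 (-1.70). Fosl1 was also higher in TNF+ synovial endothelium, 9.24 against 55.6 CPM (2.59), and in synovial myeloid cells, 12.8 against 48.5 (1.93), where Fos was lower in each. In synovial endothelium 4 of 20 feedback genes were at least 2-fold higher, Tnfaip3 (1.89) and Nfkbia (1.39) among them, where 6.73% of all genes were.

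Between tissues, the further lists moved with the members in TNF- structural cells. In endothelium 22 of 25 further immediate-early genes and 9 of 9 further AP-1 and CREB family genes were at least 2-fold higher in synovium, as in Nr4a1 at 11.7 CPM in lung and 279 in synovium (4.57) and Zfp36 at 67.3 and 1368 (4.35). Heat shock genes were 8 of 20 at least 2-fold higher with a median of 0.26, led by Hspa1b at 8.38 and 517 CPM (5.95), Hspb1 at 117 and 1521 (3.70) and Dnajb1 at 22.7 and 207 (3.19), all induced by heat shock factor. Upstream genes were not raised, with 2 of 22 at least 2-fold higher and 6 lower. Of all genes tested in endothelium, 13.1% were at least 2-fold higher in synovium and 26.7% at least 2-fold lower, so the upstream counts were near that background. In mesenchyme 18 of 25 further immediate-early genes were at least 2-fold higher, among them Klf4 at 68.7 and 1608 CPM (4.55), and 8 of 20 heat shock genes were, with Dnajb1 at 21.7 and 163 CPM (2.91) but Hspb1 at 315 and 133 (-1.25). Of the nuclear RNAs 3 of 5 in endothelium and 2 of 6 in mesenchyme were at least 2-fold higher in synovium. In mesenchyme 13% of all genes tested were at least 2-fold higher.

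The members were found together in single cells. After thinning each cell to 1000 UMIs, which left out 1853 shallower cells, TNF- synovial mesenchyme cells held a UMI of 4.52 ± 1.89 of the 10 members (mean and SD over cells), with at least 5 in 56.4% of cells and none in 3.72%. TNF+ synovial mesenchyme had 3.20 ± 1.84, with at least 5 in 24.7%. Endothelium had 4.48 ± 2.53 in TNF- and 3.94 ± 2.31 in TNF+ synovium, with at least 5 in 56.6% and 43.0%. Synovial lymphocytes had a mean of 2.55 in TNF- and 1.24 in TNF+, and myeloid cells 2.34 and 1.22. In lung the means lay between 0.487 and 2.22, the highest in TNF- myeloid cells.

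Shares of cells with a UMI were also lower in TNF+ for Fos and Egr1 in synovial mesenchyme and lymphocytes. Fos was found in 70.0% of thinned TNF- mesenchymal cells (exact binomial 95% interval 68.5 to 71.5) and 31.7% of TNF+ ones (27.9 to 35.6), against 94.5% and 68.8% without thinning. For Egr1 the thinned shares were 79.6% (78.2 to 80.9) in TNF- and 43.8% (39.7 to 47.9) in TNF+, and the unthinned ones 95.4% and 84.4%. In lymphocytes Fos was found in 26.8% and 14% of thinned cells, and Egr1 in 15.8% (12.0 to 20.1) and 2.25% (0.616 to 5.65). Jun was found in 57.2% of TNF- and 35.7% of TNF+ lung endothelial cells after thinning, and in 87.6% and 38.4% without it. Fos in lung myeloid cells was found in 50.8% and 22.0%. A lower level lowers the share of cells with a UMI by itself. Fewer cells with Fos and less Fos per cell were therefore not told apart in TNF+ synovial mesenchyme.

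Cells with a Fos UMI held the other members more often than cells without one. Over 18 library-by-lineage profiles, Fosb, Junb, Atf3 and Ier2 were found more often in Fos-positive cells in all 18, Jun and Egr1 in 17, Hspa1a in 15, Egr2 in 14 and Egr3 in 11. The intervals of the 2 shares were apart in 14 profiles for Fosb, 13 for Junb, 12 for Jun and Egr1 and 7 for Hspa1a. In TNF- synovial mesenchyme Egr1 was found in 87.3% of Fos-positive and 61.6% of Fos-negative cells, and in TNF+ in 70.5% and 31.4%. Jun was found in 80.5% and 47.1%, and in TNF+ in 65.6% and 35.7%. The gap between Fos-positive and Fos-negative cells was thus present in both genotypes.

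**Figure D3:**
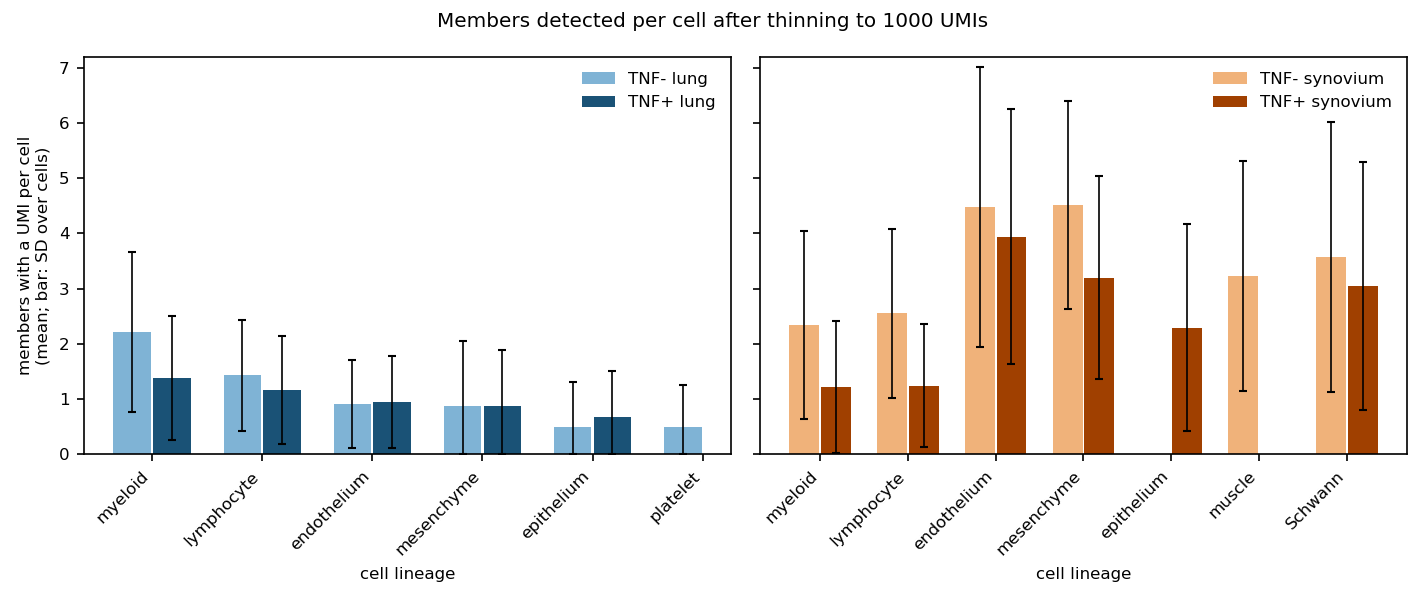
Number of the 10 members with a UMI per cell after thinning to 1000 UMIs, as the mean over cells with its SD between cells, by library and lineage. TNF- synovial mesenchyme (4.52) and endothelium (4.48) are highest, and synovial lymphocytes are at 2.55 in TNF- and 1.24 in TNF+.

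Free RNA from broken cells can enter droplets of other lineages, so 26 fibroblast marker genes were measured beside the members in each synovial lineage. In TNF- synovium the summed markers per cell were 2.18% of the mesenchyme level in myeloid cells, 3.95% in lymphocytes, 2.53% in endothelium, 4.16% in muscle and 2.54% in Schwann cells. The summed members per cell were 34.1%, 37.4%, 31.7%, 43.0% and 29.1% of the mesenchyme level in the same order. In TNF+ synovium the markers were between 0.471% in lymphocytes and 2.67% in Schwann cells, and the members between 20.5% in lymphocytes and 97.1% in endothelium. If free RNA carried members and markers in the ratio of mesenchyme, it would hold 41.8% of the Egr1 UMIs of TNF- lymphocytes, 30.4% of those of TNF+ lymphocytes, and 29.0% and 52.1% of those of TNF- and TNF+ myeloid cells. With such UMIs subtracted, 20 of the synovial pairs were still at least 2-fold lower in TNF+, though the low Egr1 and Egr3 levels of TNF+ leukocytes are partly at the level such RNA would give. In TNF- lung endothelium 24 myeloid markers were at 5.69% of their level per myeloid cell. Fos was at 2.77% there, Fosb at 4.73%, Egr2 at 1.31% and Atf3 at 6.54%, and the other members at 9.72% or more. In TNF+ lung lymphocytes the markers were at 10.7% and Atf3 at 6.63%. In lung epithelium the same markers were at 98.5% (TNF-) and 41.0% (TNF+) of their level per myeloid cell. They are thus not confined to myeloid cells in lung, and how much free RNA a lung lineage held was not measured.

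**Figure D4:**
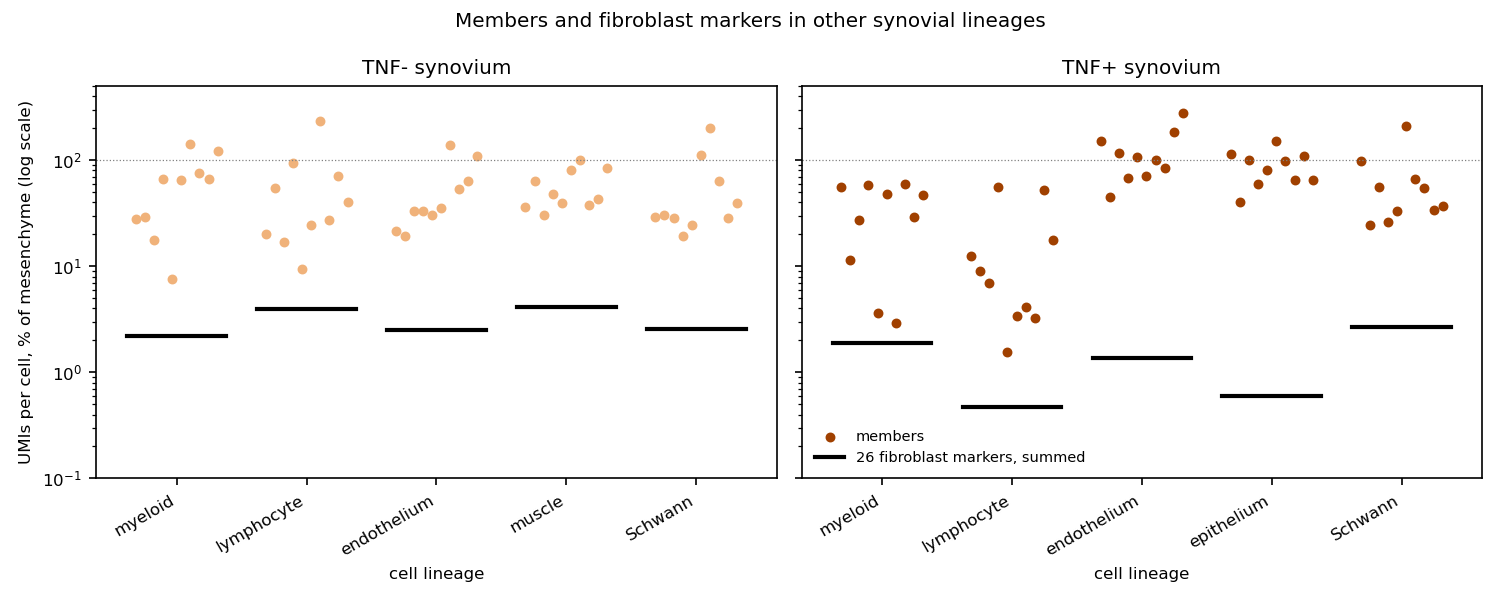
UMIs per cell of each member (dots, one per member, set side by side for legibility) and of 26 fibroblast markers summed (bars), as a percent of the mesenchyme of the same synovial library, on a log scale. Every member lies above the marker bar of its lineage, and the gap is smallest for the lowest members in TNF+ myeloid cells.

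Tissue digestion was not varied in these libraries, and each library is a single digestion, so its part in any level above was not tested. What the files hold is the mitochondrial share of each barcode and the heat shock genes given above. Across unfiltered barcodes of TNF- synovial mesenchyme, the 10 members summed to 14270 CPM where mitochondrial genes gave under 5% of UMIs, 7565 at 5% to 10%, 5393 at 10% to 20% and 3955 above 20%. In TNF+ synovial mesenchyme the sums were 4903, 6865, 4487 and 1163. The difference between the libraries was therefore present among the cells of lowest mitochondrial share, 3685 in TNF- and 612 in TNF+, was smaller at 5% to 10% (166 and 106 cells) and 10% to 20% (59 and 63 cells), and was again large above 20%, where 20 and 91 cells were counted.

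Endothelium of TNF- synovium had 13360, 11600 and 7344 CPM in the first 3 of these bins, and that of TNF+ synovium 8403, 9162 and 6136, with 3833 above 20%. Lung endothelium was lower in each bin, with 1591, 1062 and 1026 CPM in TNF- and 1536, 1127 and 834 in TNF+. Lung myeloid cells had 2423, 1994 and 1818 CPM in TNF- and 1606, 1582 and 1850 in TNF+. Member levels were thus highest in the cells of lowest mitochondrial share in TNF- synovial mesenchyme and endothelium and in lung endothelium of both genotypes, and not in TNF+ synovial mesenchyme and endothelium, where the bin of 5% to 10% was highest.

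**Figure D5:**
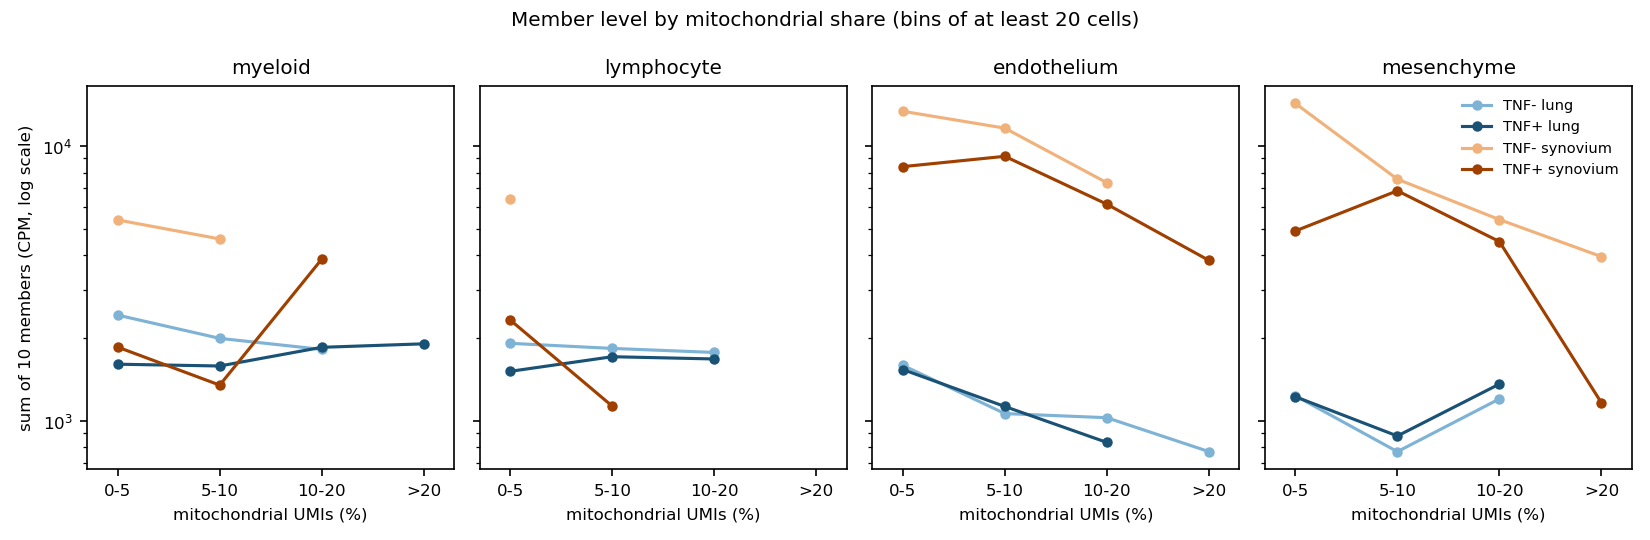
Sum of the 10 members (CPM, log axis) by mitochondrial share of the barcode, for each library and lineage with at least 20 cells in a bin, before the filter on cells. TNF- synovial mesenchyme goes from 14270 to 3955 CPM across the bins while TNF+ synovial mesenchyme starts at 4903.

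A few lineages held most of the UMIs of a member. Mesenchyme was 58.6% of TNF- synovial cells and held 83.6% of the Fos UMIs, 73.1% of those of Junb and 61.5% of those of Hspa1a. Endothelium was 16.7% of TNF+ synovial cells and held 44% of the Hspa1a UMIs and 28.6% of those of Fos. Myeloid cells were 15% of TNF- lung cells and held 65.5% of the Fos UMIs, and in TNF+ lung they were 53.3% of cells and held 80.0%. In a measurement on whole tissue, fewer cells of such a lineage and less RNA per cell could not be told apart.

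The genes whose profile was most like the members' mean over the 24 library-by-lineage profiles, among 7389 genes with a mean of at least 20 CPM, were Ccnl1 (Pearson r = 0.913), Jund (0.899), Nt5dc3 (0.898), Csrnp1 and Mt2 (both 0.894), Pcf11 (0.890), Coq10b (0.878), Ddx3x (0.875), Sertad1 (0.874) and Arid5a (0.872). The profiles share libraries, so the r values are descriptions. By member, the most similar gene was Wsb1 for Fos (0.871), Jund for Fosb (0.935), Ddx3x for Jun (0.905), Ccnl1 for Junb (0.879), Erf for Egr1 (0.893), Mt1 for Egr2 (0.832), Arid5a for Egr3 (0.860), Cdkn1a for Atf3 (0.921) and Btg2 for Ier2 (0.836). Hspa1a was most like its near-identical copy Hspa1b (0.957). Each member also followed the mean of the other 9, most closely Fos (0.943) and least Ier2 (0.645) and Jun (0.756).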

How the data were processed

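Single-cell suspensions of pooled lung or synovium were sequenced as 1 library per genotype and tissue with the 10x 3′ chemistry. The authors aligned reads to mm10 with Cell Ranger 7.0.1, as named in the submitters' processing notes, and deposited filtered UMI counts per gene and cell, which are not normalized. Cells with 200 to 5000 genes and at most 20% mitochondrial UMIs were kept. Each tissue was clustered (scanpy 1.11.5, leidenalg 0.10.2) on 2000 variable genes without the members and listed genes, 30 principal components, 20 neighbours and Leiden resolution 0.8. A cluster was named when at least 5 of a type's markers were 2-fold up and found in at least 10% of cells, and doublets were removed only as an alternative. UMIs were summed per library and lineage of at least 50 cells and divided by their total. With 1 library per group no test across samples was possible, and "lower" or "higher" means the ratio of 2 libraries, not a tested change. Genes with at least 20 UMIs over both libraries were compared and the log2 ratio computed, and a ratio of 2-fold was called. Zero counts were set to 3 counts. Members, lists and comparisons were chosen with earlier results of these data known. Named genes were the 10 members, up to 4 highest and 4 lowest genes of a list in a comparison with at least 50 UMIs, and the most similar genes. Scripts ran on Python 3.11.15 with numpy 2.4.6, scipy 1.17.1, pandas 2.3.3 and matplotlib 3.10.9 and were checked on simulated data. Alternatives covered scaling, cell weights, cell filters, doublets, clustering, depth, the UMI minimum, clusters of 1 library and free RNA.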

Additional observations from a re-analysis of the deposited data

How the results depend on the processing

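No paired analysis was possible because each group is 1 library, and for the same reason no library could be left out. Of the 35 member-by-lineage ratios past 2-fold between TNF+ and TNF-, 23 stayed past it under every alternative that gave a value and none changed sign. The 12 others were Atf3 (0.85 to 2.11), Egr3 (0.80 to 3.09) and Fosb (-2.89 to -0.23) in lung mesenchyme, Atf3 (-1.59 to -0.67), Egr2 (-1.81 to -0.68) and Fos (-2.00 to -0.91) in lung myeloid cells, Fosb (-1.09 to -0.87) in lung lymphocytes, Fos (-2.02 to -0.51) in platelets, Egr1 (-1.64 to -0.28) in Schwann cells, Fos (-1.71 to -0.98) in synovial myeloid cells, and Ier2 (-1.42 to -0.49) and Jun (-1.69 to -0.74) in synovial mesenchyme. The 20 synovial pairs at least 2-fold lower were between 19 and 25 under the alternatives. Synovial pairs at least 2-fold higher, 0 as reported, were 1 with median-of-ratios scaling, with no filter on cells and with each library clustered by itself, and 2 after thinning to 1000 UMIs and with single-library clusters left out. Lung pairs at least 2-fold higher, 5 as reported, were 8 with cells weighted equally and with each library clustered by itself, 2 after thinning, 3 with single-library clusters left out, 9 with no minimum of UMIs and 3 with a minimum of 100 UMIs. Lung pairs at least 2-fold lower, 10 as reported, were 6 with single-library clusters left out. Fewer cells or UMIs are in use by construction after thinning, leaving out clusters or raising the minimum, and otherwise the cause was not tested. The alternatives on free RNA and on single-library clusters were chosen after seeing the data. Depth limits Egr2 and Egr3, whose TNF+ levels in synovial lymphocytes rest on 2 and 4 UMIs, and members with no UMI in TNF+ lung platelets or epithelium.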
